A study of Mus musculus with 2 samples.

Results

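The microRNA genes Mir103-1, Mir103-2 and Mir107 lie in introns of the pantothenate kinase genes Pank3, Pank2 and Pank1. They were taken by their GENCODE M21 symbols from both count tables, and all 3 were found among 2202 microRNA genes. The study sequenced small RNA of left cerebral cortex from male mice of the strain B6CASTF1/J, an F1 hybrid of C57BL/6J with CAST, at an age of 36 days. The 2 libraries make up 1 group, replicate 1 from the animal numbered 3 and replicate 2 from the animal numbered 4, and the labels give both the same donor identifier. No mutation or agent is labelled. With 1 group the libraries can only be compared with each other, and p-values then measure counting error in these libraries, whose differences may be technical.

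A microRNA is cut from a hairpin transcript, and the strand that enters an Argonaute protein pairs with messenger RNAs mainly through its seed, bases 2 to 8 from the 5′ end. Pantothenate kinases catalyse the first step of coenzyme A synthesis, and their introns have carried miR-103 and miR-107 hairpins through vertebrate evolution. The 3p strands of the family are known to repress Dicer1, which makes mature microRNAs, and Cav1, a regulator of the insulin receptor in mouse fat cells. miR-107 is also known to repress BACE1, the protease that begins amyloid formation, and has been reported as low in human cortex in Alzheimer disease.

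The mature strands are shown because the few bases in which they differ decide which gene a read can be assigned to. RefSeq sequences on GRCm38.p6 (mm10) were found for all 3 genes, with a 5p and a 3p strand each. Capitals mark the seed, bases 2 to 8.
miR-103-3p (Mir103-1 and Mir103-2): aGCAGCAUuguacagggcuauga
miR-107-3p (Mir107): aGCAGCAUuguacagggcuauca
miR-103-1-5p (Mir103-1): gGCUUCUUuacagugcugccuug
miR-103-2-5p (Mir103-2): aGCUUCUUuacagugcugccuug
miR-107-5p (Mir107): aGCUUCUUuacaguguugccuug

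All strands are 23 bases long. The 3p strands of Mir103-1 and Mir103-2 had 0 substitutions between them, so 1 mature miR-103-3p comes from both genes. Counted from 1 at the 5′ end, with the miR-103 base first, miR-107-3p differs from miR-103-3p by G22C alone, outside the seed. The 5p strands differ more, by G1A between Mir103-1 and Mir103-2, by C16U between Mir103-2 and Mir107, and by G1A and C16U between Mir103-1 and Mir107. The 3p seed was carried by 3 genes of the 1058 with a mature strand in the RefSeq table, and those were Mir103-1, Mir103-2 and Mir107. The 5p strands share another seed, which was likewise found in 3 genes and no others of that table.

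The hairpins are shown whole because their loops and flanks, where they differ most, hold further bases by which a read can be placed. Capitals mark the 5p and then the 3p strand.
Mir103-1 (Pank3): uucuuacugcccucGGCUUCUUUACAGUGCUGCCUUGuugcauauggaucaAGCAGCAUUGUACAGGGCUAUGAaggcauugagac
Mir103-2 (Pank2): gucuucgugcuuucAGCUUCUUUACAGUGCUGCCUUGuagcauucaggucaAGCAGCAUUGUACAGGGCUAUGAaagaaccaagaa
Mir107 (Pank1): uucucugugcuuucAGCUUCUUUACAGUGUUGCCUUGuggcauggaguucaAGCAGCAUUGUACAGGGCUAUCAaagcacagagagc

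In a global alignment 80.2% of columns were identical between the Mir103-1 and Mir103-2 hairpins, 80.5% between Mir103-1 and Mir107 and 83.9% between Mir103-2 and Mir107. Over the whole hairpin Mir103-2 was therefore closer to Mir107 than to Mir103-1, although it makes the same mature 3p strand as Mir103-1. In each hairpin 14 bases separate the arms. The predicted minimum free energy was -35.8 kcal/mol for Mir103-1, -31.8 kcal/mol for Mir103-2 and -41.2 kcal/mol for Mir107, with 33, 33 and 36 base pairs in that order of genes. The GC content lay between 45.3% for Mir103-2 and 47.7% for Mir103-1.

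The genes are on 3 chromosomes, each on the strand of its host. Mir103-1 lies at chr11:35782396-35782481 (mm10, plus strand), Mir103-2 at chr2:131288052-131288137 (plus strand) and Mir107 at chr19:34820687-34820773 (minus strand). In the principal coding transcript of each host, which has 7 exons, the hairpin sits in intron 5. It starts 688 bases past the upstream exon in Pank3, 454 in Pank2 and 326 in Pank1. The host introns are of unequal length, at 1740 bases in Pank3, 5801 in Pank2 and 7282 in Pank1. No hairpin overlaps an exon in any of the 13 annotated transcripts of the 3 hosts. Pank4, another gene of the family, is host to none of the 3 hairpins. No other microRNA gene lies within 10 kb of any of them, and the nearest to Mir107 is 70074 bases away.

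**Figure D1:**
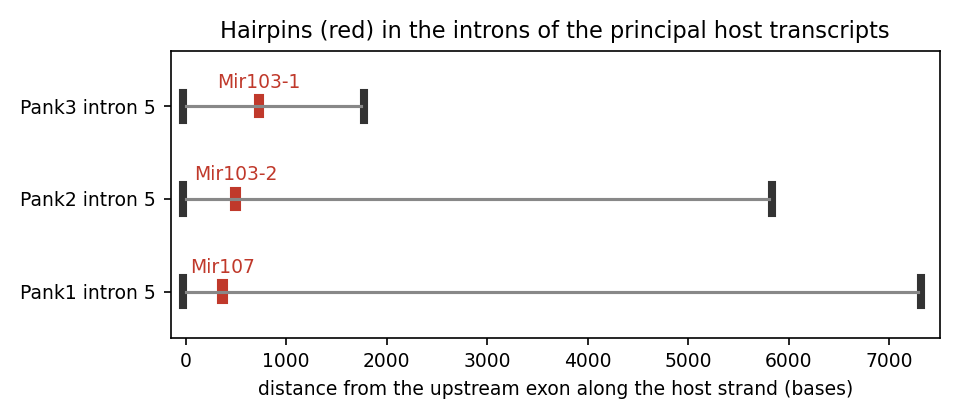
Introns of the principal transcripts of Pank3, Pank2 and Pank1, from top to bottom, with distance from the upstream exon in bases along the host strand. Grey lines are introns, dark bars mark only where the flanking exons begin (their width is not to scale), and red boxes are the hairpins, which start 688, 454 and 326 bases into intron 5.

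The tables give whole-number counts of reads per gene, of which the counts on the gene's own strand were used. These came to 4273791 in replicate 1 and 4010274 in replicate 2, and levels are in CPM, counts scaled to 1000000 own-strand microRNA counts per library. Reads that mapped to several loci, 42.8% of reads in replicate 1 and 39.9% in replicate 2, are in no gene's count. The 4 neuronal marker genes fixed for the tissue check, Mir132, Mir128-1, Mir137 and Mir138-1, each reached 10 CPM in both libraries and summed to 79083 and 48391 CPM. Markers of other cells were present too, and at least 1 gene of each of the other 7 marker lists reached 10 CPM in both libraries. Intervals are exact (95%) and cover counting error only.

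Nearly all counts of the family were assigned to Mir107. It had 12592 counts in replicate 1 and 23192 counts in replicate 2, which is 2946 CPM (2895 to 2998) and 5783 CPM (5709 to 5858), with a mean of 4365 ± 2006 CPM (SD, n = 2). Replicate 2 was the higher library by 1.96 times, and the intervals did not overlap. By mean CPM Mir107 ranked 45th of 2202 microRNA genes, at 56th in replicate 1 and 37th in replicate 2, and it ranked 46th by CPM per 100 annotated bases.

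Mir103-2, the Pank2 copy, had 274 counts in the libraries together, 167 of them in replicate 2. Its level was 25.0 CPM (20.5 to 30.3) in replicate 1 and 41.6 CPM (35.6 to 48.5) in replicate 2, with a mean of 33.3 ± 11.7 CPM (SD, n = 2). Here too replicate 2 was higher, with intervals that did not overlap. Mir103-2 ranked 253rd by mean CPM.

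Mir103-1, the Pank3 copy, had 25 counts in replicate 1 and 34 counts in replicate 2. Its level was 5.85 CPM (3.79 to 8.64) in replicate 1 and 8.48 CPM (5.87 to 11.8) in replicate 2, with a mean of 7.16 ± 1.86 CPM (SD, n = 2). It stayed under 10 CPM in both libraries and ranked 349th by mean CPM, and its intervals overlapped. Of the 3 genes, 2 were thus at or above 10 CPM in both libraries, as 300 of all 2202 genes were.

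**Figure D2:**
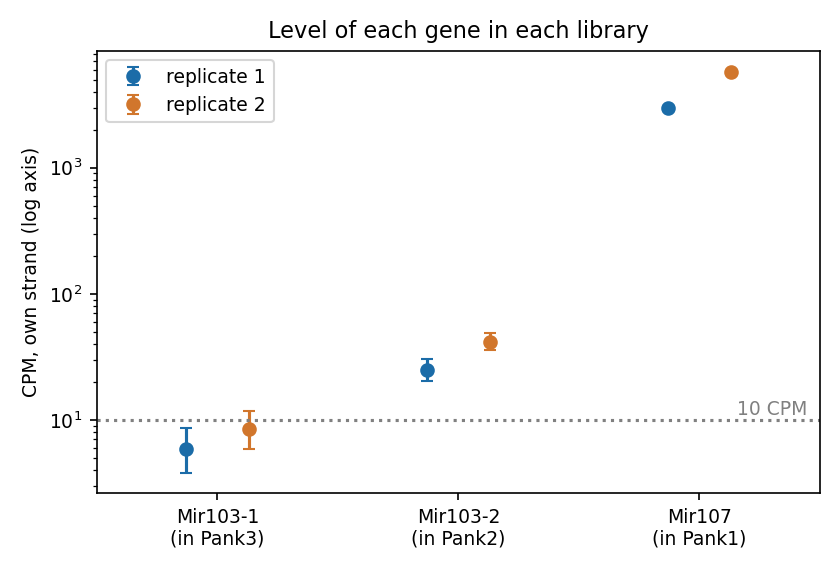
Own-strand CPM (log axis) of Mir103-1, Mir103-2 and Mir107 in replicate 1 (left point of each pair) and replicate 2 (right point), with exact 95% Poisson intervals as bars. Mir107 stood at 2946 and 5783 CPM and Mir103-2 at 25.0 and 41.6 CPM, above the dotted line at 10 CPM, and Mir103-1 at 5.85 and 8.48 CPM, below it.

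The order of the levels, Mir107 above Mir103-2 above Mir103-1, was the same in both libraries. Per annotated base Mir107 stood 116 times (96.2 to 142) as high as Mir103-2 in replicate 1 and 137 times (118 to 161) in replicate 2. Against Mir103-1 the ratio per base was 498 (337 to 770) in replicate 1 and 674 (482 to 974) in replicate 2. Mir103-2 stood 4.28 times (2.75 to 6.91) as high per base as Mir103-1 in replicate 1 and 4.91 times (3.38 to 7.33) in replicate 2. None of these intervals reaches 1, so the assigned counts of each neighbouring pair in the order differed beyond counting error in both libraries. The levels and ratios describe assigned reads only. A mature miR-103-3p fits both Mir103 genes, and reads that mapped to several loci are in no gene's count. The part of such reads in these ratios was not tested.

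Mir107 took 99.0% (98.8 to 99.1) of the counts of the 3 genes in replicate 1 and 99.1% (99.0 to 99.3) in replicate 2. Mir103-2 took 0.841% (0.690 to 1.02) and 0.714% (0.610 to 0.830) in replicates 1 and 2, and Mir103-1 took 0.196% (0.127 to 0.290) and 0.145% (0.101 to 0.203). A two-sided Fisher's exact test of Mir107 against both Mir103 genes gave an odds ratio of 0.827 (0.660 to 1.04) for replicate 1 over replicate 2, with p = 0.0947 (0.126 after Benjamini-Hochberg adjustment over 4 such comparisons). Mir103-1 against Mir103-2 gave an odds ratio of 1.15 (0.619 to 2.10) with p = 0.662 in the same exact test (0.662 adjusted). No change in the composition of the family was detectable, and the last interval is wide because Mir103-1 had 59 counts in the libraries together.

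These levels, ratios and shares describe assigned reads, and the sequences above bear on which reads could be assigned. A stretch of 27 bases, ucaagcagcauuguacagggcuaugaa, which holds the whole mature 3p strand, was shared by the Mir103-1 and Mir103-2 hairpins. Mir107 shared 24 bases, ucaagcagcauuguacagggcuau, with each of them. A stretch that starts at the first base of the 3p strand and runs for 18 to 21 bases fitted all 3 genes. From 22 bases on it fitted Mir107 alone where it carries the miR-107 base, whereas the miR-103-3p stretch still fitted both Mir103-1 and Mir103-2 at 24 bases and separated them only at 25 bases. From the first base of the 5p strand, all lengths from 18 to 25 bases fitted 1 gene, for each of the 3 genes. For both Mir103 genes this rested on that first base. A stretch that starts 1 base later, at base 16 of the hairpin, fitted 1 gene only from 24 bases in Mir103-1 and Mir103-2. In Mir107 it did so from 18 bases. A mature miR-103-3p of 23 bases therefore fits both Mir103-1 and Mir103-2, while miR-107-3p of that length and all 3 full 5p strands fit 1 microRNA gene.

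Along the whole hairpin, 87.7% of the windows of 22 bases in Mir103-1, 84.6% of those in Mir103-2 and 92.4% of those in Mir107 were found in no other microRNA gene of the tables, on either strand. Sharing of this kind was common, since 1081 of the 2202 genes, those that overlap on opposite strands included, had at least 1 such window in common with another. The search covered annotated microRNA genes and exact matches; other copies in the genome were not searched. The tables merge both arms, so the part that 3p reads took in the counts of each gene was not tested.

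**Figure D3:**
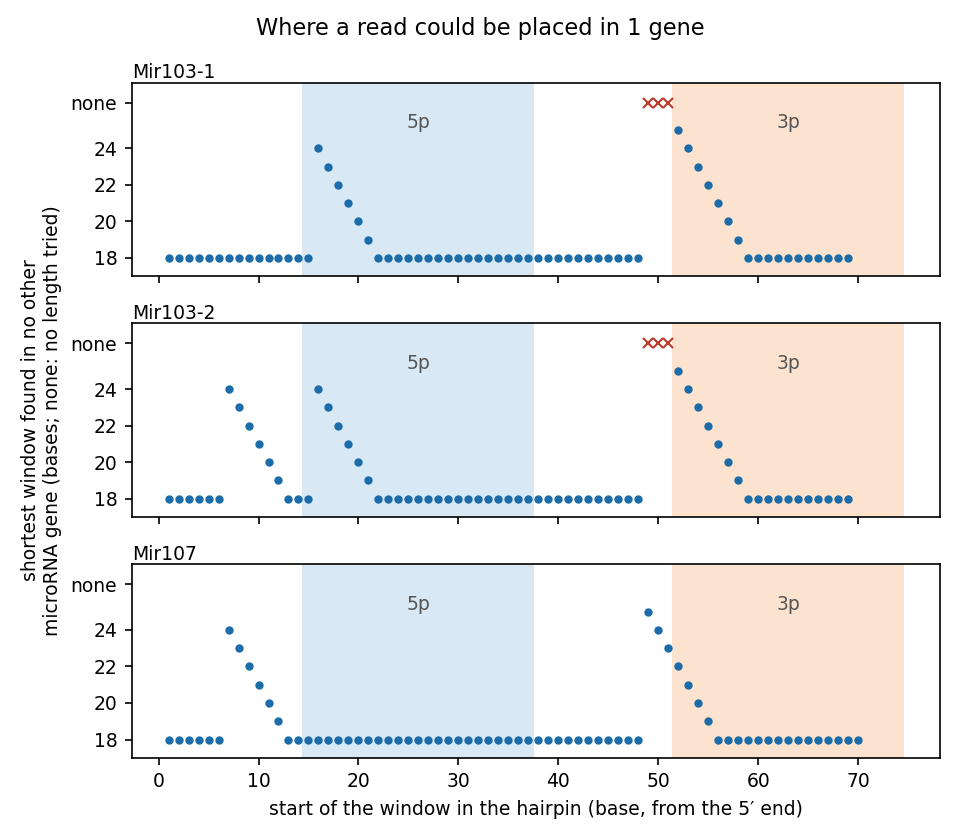
Shortest window, in bases, that occurs in no other microRNA gene of the tables (vertical axis), against the base of the hairpin at which the window starts (horizontal axis), for Mir103-1, Mir103-2 and Mir107. Blue points are windows of 18 to 25 bases, red crosses are starts with none, and shading marks the 5p and 3p strands; at the first base of the 3p strand the shortest length was 25 bases for both Mir103 genes and 22 bases for Mir107.

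Opposite-strand counts were 0 at each of the 3 genes in both libraries. No annotated microRNA gene overlaps them, and their unstranded counts equalled their own-strand counts. With 0 counts a level of up to 0.702 CPM is still allowed in replicate 1, and of up to 0.748 CPM in replicate 2.

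Mir107 and Mir103-2 were lower in replicate 1 than in replicate 2. Genes were compared between the libraries in a two-sided exact binomial test on counts, for those whose counts in both libraries came to 10 or more, scaled by TMM effective library sizes from edgeR and adjusted by the Benjamini-Hochberg method over all 516 genes tested. Of the 3 genes 2 were called, at an adjusted p under 0.05, against 57.9% of all genes tested, and both were lower in replicate 1, a direction that 27.5% of all genes tested shared. A call is thus common between these libraries, and 2 calls of 3 are close to the background.

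Mir107 had a log2 ratio of -1.01 (-1.04 to -0.98), replicate 1 over replicate 2, with an adjusted p under 1e-300, the smallest value written, in the exact binomial test. Mir103-2 had a log2 ratio of -0.77 (-1.14 to -0.42) with an adjusted p of 3.16e-05 in the same exact test. Mir103-1 had a log2 ratio of -0.58 (-1.38 to 0.21) with an adjusted p of 0.217 in that exact test, so no difference was detectable at its depth, and its interval also holds the ratios of Mir103-2 and Mir107. The median over the 3 genes was -0.77, against 0.04 over all tested genes with counts in both libraries. Of the 309 genes with 100 or more counts, 16 (5.18%) had a more negative ratio than Mir107 and 33 (10.7%) a more negative one than Mir103-2.

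**Figure D4:**
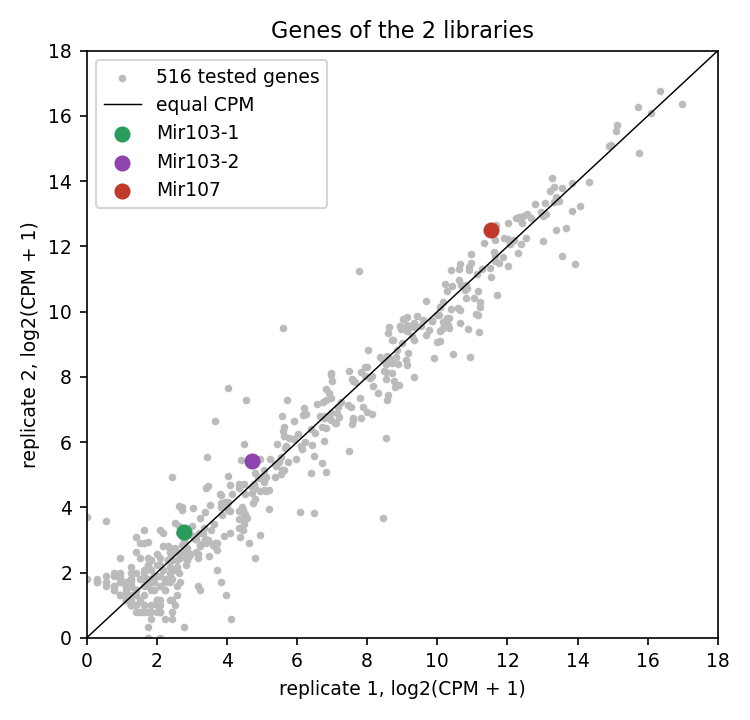
log2(CPM + 1) of the 516 genes tested, in grey, for replicate 1 (horizontal axis) against replicate 2 (vertical axis), a black line where both are equal, and Mir103-1, Mir103-2 and Mir107 in colour. All 3 coloured points lie above the line, Mir107 at 2946 and 5783 CPM among the abundant genes and Mir103-1 at 5.85 and 8.48 CPM among the scarce ones.

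Marker levels also differed between the libraries in the same direction as Mir107 or in the opposite one. The red-cell list, Mir451a and Mir144, summed to 56.9 and 771 CPM in replicates 1 and 2, with 1 of 2 genes at 10 CPM in both libraries. The 5 epithelial genes summed to 138 and 386 CPM in replicates 1 and 2, and most of that gap was Mir200c, at 15.4 and 201.5 CPM. Mir141 had 0 counts in replicate 1, but Mir200b was called higher there, at a log2 ratio of 0.31. Both mural cell genes together came to 5178 and 7691 CPM, with opposite directions: Mir143 was called lower in replicate 1, at a log2 ratio of -0.65, and Mir145a higher, at 0.42. The summed neuronal list was higher in replicate 1, as given above, mostly through Mir132, at 54937 and 30022 CPM, whereas Mir138-1 was called lower in replicate 1, at 5292 and 7354 CPM. Both oligodendrocyte genes together summed to 5092 and 3534 CPM in replicates 1 and 2. The part of cell composition in the difference of Mir107 was not tested. In tissue, fewer cells of a type and less of a microRNA per cell cannot be told apart.

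Most genes with a related seed differed in the other direction. The miR-15/16 group begins with a shifted copy of the same core, AGCAGC, starting at base 2 in place of base 1, and is known for targets such as Bcl2 and the cyclins. Its most abundant gene by mean CPM and the gene that differed most between the libraries are shown for comparison with the 3p strands above. The seed is in capitals.
miR-322-5p (Mir322): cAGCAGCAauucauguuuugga
miR-195a-5p (Mir195a): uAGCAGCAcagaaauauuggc

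All 9 genes of the related list carry AGCAGC within the first 8 bases of a mature strand, and 8 of them had 10 CPM or more in both libraries. Mir322, of the growth-linked X-chromosomal cluster, was the highest by mean, at 1102 ± 27.4 CPM (SD, n = 2). It had 1082 CPM in replicate 1, where Mir195a was higher, and 1121 CPM in replicate 2. Per 100 annotated bases Mir107 stood at 5017 CPM on average and Mir322 at 1160 CPM. Of the 8 related genes tested, 7 were called higher in replicate 1, a direction shared by 30.4% of all genes tested, and Mir322 was called lower, at a log2 ratio of -0.09 (-0.15 to -0.03). Their median log2 ratio was 0.46. All 8 had 100 or more counts in the libraries together. Among the 309 genes with that many, 133 were called higher and 114 lower in replicate 1. The 8 related genes lie in neighbouring pairs, so they are not 8 separate loci. Mir15a is beside Mir16-1 on chromosome 14, Mir15b beside Mir16-2 on chromosome 3, Mir195a beside Mir497 on chromosome 11 and Mir322 beside Mir503 on the X chromosome. Mir195a had the largest ratio, at 1.70 (1.62 to 1.78), on 1387 CPM in replicate 1 and 415 CPM in replicate 2.

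Within the 12 genes that carry the core and were listed, Mir103-1, Mir103-2 and Mir107 together took 38.4% (37.8 to 38.9) of the counts in replicate 1 and 64.3% (63.8 to 64.8) in replicate 2. This share does not depend on how the libraries are scaled, but it describes assigned reads only. Both sides hold a mature strand that comes from more than 1 gene: miR-103-3p from Mir103-1 and Mir103-2, and miR-16-5p from Mir16-1 and Mir16-2. Reads that mapped to several loci are in no gene's count, and their part in this share was not tested. The odds ratio of the 3 genes against the 9 related ones was 0.346 (0.335 to 0.357) for replicate 1 over replicate 2, with p under 1e-300 in a two-sided Fisher's exact test (under 2e-300 adjusted over the same 4 comparisons). The comparison was chosen after values were seen, which the adjustment does not cover, so the p-value is no separate evidence. Without Mir195a the shares were 46.7% and 67.4% in replicates 1 and 2. In all 15 genes of the RefSeq table carry AGCAGC within those 8 bases, and the remaining 3, Mir6342, Mir6353 and Mir6419, had 0 counts in both libraries.

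**Figure D5:**
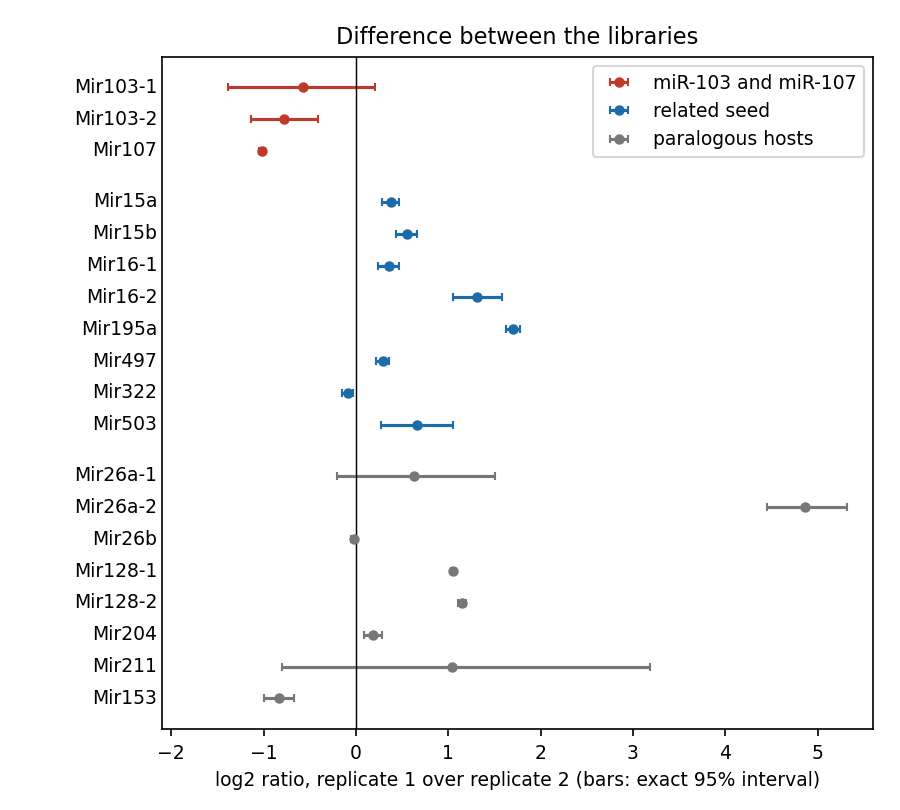
log2 ratio of replicate 1 over replicate 2 (horizontal axis, exact 95% intervals as bars) for Mir103-1, Mir103-2 and Mir107 (red), the 8 tested genes with a related seed (blue) and 8 genes of intronic families with paralogous hosts (grey). Mir107 lies at -1.01 and Mir195a at 1.70, and Mir26a-2 lies farthest from 0 at 4.87.

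Another intronic family has the same make-up of loci. Mir26a-1, Mir26a-2 and Mir26b lie in introns of genes of the Ctdsp phosphatase family, and the mature 5p strand of the first 2 is the same.
miR-26a-5p (Mir26a-1 and Mir26a-2): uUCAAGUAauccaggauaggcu
miR-26b-5p (Mir26b): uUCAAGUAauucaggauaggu

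In both families the gene with a mature strand of its own held most of the assigned counts. A stretch from the first base of miR-26a-5p fitted both Mir26a genes at 18, 20, 22 and 23 bases, whereas that of miR-26b-5p fitted Mir26b alone. Reads that mapped to several loci are in no gene's count, so levels and shares in this family describe assigned reads only. How many such reads came from miR-26a-5p was not tested. Mir26b had 4324 and 4277 CPM in replicates 1 and 2, with a mean of 4301 ± 33.6 CPM, against 181.8 ± 240.6 CPM for Mir26a-2 and 6.47 ± 2.10 CPM for Mir26a-1 (SD, n = 2). Mir26b took 92.3% (91.9 to 92.7) of the counts of its family in replicate 1 and 99.6% (99.5 to 99.7) in replicate 2, and the two-sided Fisher's exact test of that difference gave p under 1e-300 (under 2e-300 adjusted). That test, too, was chosen after values were seen. Mir26a-2 had 1504 counts in replicate 1 and 47 counts in replicate 2. The test of composition passed the threshold for the miR-26 genes and missed it for Mir107 and the Mir103 genes, and a difference between the families was not tested.

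The miR-128 genes, in introns of R3hdm1 and Arpp21, also share a mature 3p strand, and both were abundant. Mir128-1 averaged 9537 ± 4866 CPM and Mir128-2 averaged 2380 ± 1311 CPM (SD, n = 2). At its full mature length miR-128-3p fits both of its genes, as miR-103-3p fits both Mir103 genes. The likeness ends there: a stretch from the first base of miR-128-3p fitted 1 gene at 22 bases. That of miR-103-3p still fitted both Mir103 genes at 24 bases. Both miR-128 genes were higher in replicate 1, with log2 ratios of 1.05 for Mir128-1 and 1.15 for Mir128-2. Of the 8 genes on the list of intronic families with paralogous hosts, which also holds Mir204, Mir211 and Mir153, 4 were called higher and 1 lower in replicate 1, against 30.4% and 27.5% of all genes tested, and the one lower was Mir153, at -0.83. That is 5 calls of 8, close to the 57.9% of all genes tested that were called. Their median log2 ratio was 0.84. It lies between Mir26a-1 at 0.63 (-0.20 to 1.51) and Mir211 at 1.04 (-0.80 to 3.19), neither of them called. The median of -0.77 for Mir103-1, Mir103-2 and Mir107 is the value of Mir103-2, and a difference between the lists was not tested.

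The genes most like Mir107 in level over the 2 libraries were Mir361 and Mir335. They lay at Euclidean distances of 0.22 and 0.33 in log2(CPM + 1) from it, with 3252 CPM in replicate 1 and 6508 CPM in replicate 2 for Mir361, and 3176 and 4671 CPM for Mir335. The nearest to Mir103-2 were Mir135a-2 and Mir3057, each at a distance of 0.11. With 2 libraries this likeness describes 2 values per gene and no more.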

How the data were processed

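Small RNA of left cerebral cortex was analysed in 2 libraries of 1 group. Per the text files deposited beside the tables, the authors mapped reads to mm10 with GENCODE M21; the deposited values are counts per microRNA gene, not normalized. The sources used here do not give the aligner, counter or trimming. Column 3 was read as own-strand counts. Entries that name no gene (16.7% and 20.9% of reads unmapped, 42.8% and 39.9% multi-mapped, 4.56% and 4.39% outside genes, in replicates 1 and 2) stayed out of totals.

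CPM, exact intervals, TMM factors (edgeR 4.0.16, R 4.3.3), exact binomial tests with Benjamini-Hochberg adjustment at 0.05 and Fisher's exact tests were computed here (SciPy 1.17.1). The binomial test was checked on simulated Poisson counts. These hold counting error only, so the check does not cover other spread between libraries. No count model was fitted, since 1 group has no contrast. Folds are from ViennaRNA 2.7.2 and alignments from Biopython 1.88. Named were the 3 genes, the 2 genes nearest to each at 10 CPM or more, and listed genes. The members and lists were chosen with earlier results of these data known. Mir195a, Mir26a-2, Mir153, the genes at 0 counts, the Fisher's tests on related and miR-26 genes and the alternatives for the share among AGCAGC genes were chosen after values were seen. The alternatives tried were unstranded counts, other minimum counts, scaling by total counts or by DESeq2 1.42.0 size factors, totals that leave out the most abundant gene, and all reads as the total.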

Additional observations from a re-analysis of the deposited data

Results flagged for a closer look

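Reads mapped to several loci were not used in any comparison, and they make up a large part of both libraries. Replicate 1 had 42.8% of its reads among them and replicate 2 had 39.9%, or 5091406 and 4604314 reads, against 132 and 201 counts assigned to Mir103-1 and Mir103-2 together. How many of them came from miR-103-3p was not tested, since the tables give them as 1 total per library.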

How the results depend on the processing

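Levels per 1000000 reads of any kind were lower: Mir107 averaged 1535, Mir103-2 averaged 11.7, Mir103-1 averaged 2.53 and the sum of the 3 genes 1549. The total of all reads also holds reads that mapped to several loci, unmapped reads and, as the smallest part, reads outside genes. Over all settings the log2 ratio of Mir107 ranged from -1.05 to -0.90, that of Mir103-2 from -0.81 to -0.66 (adjusted p from 1.31e-05 to 0.000503 in the exact binomial test) and that of Mir103-1 from -0.61 to -0.46 (adjusted p from 0.179 to 0.330). Mir103-1 has no value at a minimum of 100 counts. Leaving out either replicate gave 2946 to 5783 CPM for Mir107, 25.0 to 41.6 for Mir103-2, 5.85 to 8.48 for Mir103-1 and 2977 to 5833 for the sum; with 2 libraries these are each library's own values, so they say nothing about stability, and no test of a difference exists with 1 library. Genes called higher in replicate 1 numbered 157 and lower 142, against 146 and 150 with DESeq2 size factors and 180 and 124 with totals without the most abundant gene, so which direction held more genes depended on the scaling. No paired analysis was possible because there is 1 group. Depth limits Mir103-1 most, at 25 and 34 counts.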
